A study of Mus musculus with 6 samples.

Results

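The 32 genes described here were listed by symbol and fall into 3 roles: 16 carry or regulate the steps from glucose to pyruvate, 6 set the fate of pyruvate (lactate or mitochondrial oxidation), and 10 belong to the response to hypoxia. All 32 were among the 15703 genes of the deposited table, 31 by a cell holding that symbol alone and Gapdh by its gene identifier, since its symbol cell held several names.

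Glycolysis splits glucose into pyruvate in the cytosol, and its enzymes are among the most abundant transcripts of most tissues. When oxygen is short, the prolyl hydroxylases that mark the transcription factor HIF for breakdown work more slowly, and HIF then switches on glycolytic enzymes, angiogenic and vasoactive signals, and its own hydroxylases. The embryonic and newborn cortex relies on this system while its vessels are still growing in.

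Neocortex RNA of newborn (postnatal day 0) C57BL/6 mice was measured in 3 libraries labelled WT and 3 labelled cKO, the latter with 2 floxed Tcf4 alleles and 1 Emx1-driven Cre allele (Tcf4 f/f; Emx1Cre/+). The labels do not say whether the WT animals carried a floxed allele or Cre. Emx1-Cre acts in dorsal progenitors, which give rise to the excitatory neurons and much of the glia of the cortex. Interneurons, microglia and vascular cells arise elsewhere and would keep Tcf4, but Tcf4 was not measured by cell type here. Values are FPKM, fragments per kilobase of exon and per 1 M reads (1000000). The length that gave near-whole reads was that of all annotated exons of a gene. Levels, shares and ratios of different genes therefore depend on that annotated length, which can exceed that of the expressed transcripts. The summed approximate reads were 25.3 to 28.8 M per library. The targeted gene Tcf4 measured 71.2, 75.6 and 75.3 FPKM in WT and 56.5, 60.6 and 55.3 in cKO, a log2 difference of -0.36 (limma, adjusted p = 0.00411). Neuron markers were present in every library, with a summed level of 2294 to 2340 FPKM in WT and 2189 to 2232 in cKO. No measured marker of the 10 cell classes examined was at 0 in all libraries, which was fixed beforehand, since the lowest mean of any listed gene was 0.0272 FPKM. Markers without a value were S100b of astrocytes, Slco1a4 of endothelium, Acta2 and Tagln of mural cells, Tmem119 of microglia and 6 of 11 erythroid markers. The titles carry 6 different codes but do not state that these are separate animals, so p-values measure only the spread between these samples.

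Of the 32 genes, 4 were higher in cKO (Pfkfb3, Adm, Egln3 and Mxi1), 1 was lower (Ndrg1) and 27 did not pass an adjusted p of 0.05 in limma. The called share was 15.6%, beside 15.8% of all genes (7.22% higher and 8.59% lower), so the number of calls among the 32 was no larger than the background. The median log2 change of the 32 was 0.025, beside 0.0017 over all genes. The groups of 3 did not overlap in 13 of the 32 genes, 7 higher and 6 lower in cKO, which is 40.6% beside 37.3% of all genes (18.5% higher and 18.7% lower). By role, the calls were 1 of 16 genes from glucose to pyruvate, 0 of 6 genes at the fate of pyruvate, and 4 of 10 hypoxia response genes. At an unadjusted limma p under 0.05, 14 of the 32 passed, beside 5053 of the 15703 genes in all (32.2%), so this share was larger among the 32. The plot of log2 changes by role shows this layout.

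**Figure D1:**
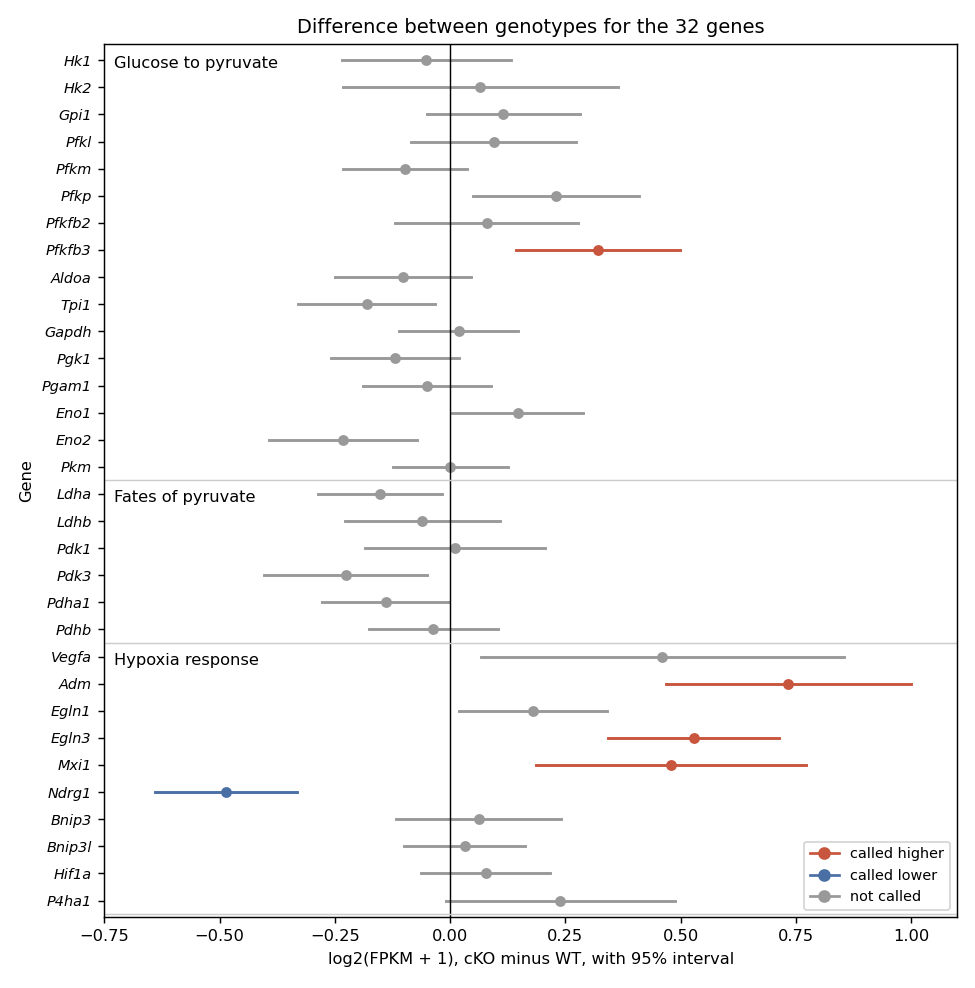
Difference between cKO and WT for each of the 32 genes, on the log2(FPKM + 1) scale, with its 95% interval from limma (3 libraries per group), grouped by role. The 4 genes called higher are red, Ndrg1, called lower, is blue, and the 27 others are grey; of the 16 genes from glucose to pyruvate, Pfkfb3 alone is coloured.

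HIF binds DNA at a short core, ACGTG or GCGTG, in the regulatory sequence of its targets. RefSeq promoter windows (GRCm38.p6, 250 bases before to 50 after a start) were found for 30 of the 32 genes, 47 windows in all, and were searched on both strands, so that the palindrome CACGTG counts on each strand. At least 1 core was present in 37 of the 47 windows (78.7%), beside 43.8% of the 32851 RefSeq windows of 27025 genes. That wider set includes genes that are not in the deposited table. A comparison with the windows of the deposited genes alone was not made. ACGTG was in 53.2% of the 47 windows (19.6% of the 32851) and GCGTG in 53.2% (32.4% of the 32851). The windows also held a median of 20 CG dinucleotides, beside 7 in all windows, and both cores contain a CG; its part in the difference was not tested. Among the windows of the called genes 6 of 7 held a core, and among those of the genes not called 31 of 40. The 4 called genes with an entry had 7 windows in all. For each of them 1 window follows, the one with the most matches (the first by position in a tie), with a window of Ldha that held 7 matches, the most of any window of the 32 genes; the windows were thus picked by their matches. Capitals mark the core matches on either strand, and each sequence runs 5′ to 3′ along the gene's own strand.

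Adm, chr7:110627407-110627706, plus strand: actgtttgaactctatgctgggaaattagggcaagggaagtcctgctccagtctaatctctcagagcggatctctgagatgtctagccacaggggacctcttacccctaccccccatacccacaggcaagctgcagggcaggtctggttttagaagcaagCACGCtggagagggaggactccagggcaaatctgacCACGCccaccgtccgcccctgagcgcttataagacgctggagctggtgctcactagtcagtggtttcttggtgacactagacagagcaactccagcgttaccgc
Egln3, chr12:54203825-54204124, minus strand: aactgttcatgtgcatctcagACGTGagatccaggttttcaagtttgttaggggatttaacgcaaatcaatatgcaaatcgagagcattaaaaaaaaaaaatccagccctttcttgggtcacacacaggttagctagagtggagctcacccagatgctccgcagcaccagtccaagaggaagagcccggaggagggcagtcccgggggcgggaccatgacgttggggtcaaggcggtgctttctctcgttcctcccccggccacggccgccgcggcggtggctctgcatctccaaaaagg
Pfkfb3, chr2:11502041-11502340, minus strand: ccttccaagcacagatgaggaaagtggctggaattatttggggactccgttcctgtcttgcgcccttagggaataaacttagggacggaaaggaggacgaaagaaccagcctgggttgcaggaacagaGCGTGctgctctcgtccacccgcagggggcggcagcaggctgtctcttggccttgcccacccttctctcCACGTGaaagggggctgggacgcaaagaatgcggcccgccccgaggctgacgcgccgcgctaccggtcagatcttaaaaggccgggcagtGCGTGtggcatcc
Mxi1, chr19:53329163-53329462, plus strand: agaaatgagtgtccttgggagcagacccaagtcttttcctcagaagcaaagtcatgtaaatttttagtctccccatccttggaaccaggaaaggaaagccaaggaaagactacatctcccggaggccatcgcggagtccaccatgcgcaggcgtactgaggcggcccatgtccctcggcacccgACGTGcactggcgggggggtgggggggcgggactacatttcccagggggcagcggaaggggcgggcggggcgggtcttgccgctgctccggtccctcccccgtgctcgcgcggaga
Ldha, chr7:46845554-46845853, plus strand: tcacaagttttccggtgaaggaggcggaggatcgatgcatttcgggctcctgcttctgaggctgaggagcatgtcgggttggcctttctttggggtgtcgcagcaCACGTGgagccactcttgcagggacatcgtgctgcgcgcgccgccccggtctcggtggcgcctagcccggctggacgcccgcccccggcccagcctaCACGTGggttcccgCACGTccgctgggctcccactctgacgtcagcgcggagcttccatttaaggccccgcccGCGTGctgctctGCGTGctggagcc

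The 1 window of Adm held 2 matches and the 1 window of Egln3 held 1. The 2 windows of Pfkfb3 held 4 and 1 matches, the 3 windows of Mxi1 held 0, 1 and 1, and the 2 windows of Ldha held 7 and 2. A match describes letters in the window and says nothing of binding.

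In the steps from glucose to pyruvate, 1 of 16 genes was higher (6.25%, beside 7.22% of all genes), none was lower, and the median log2 difference was 0.009. The 2 genes with the highest FPKM of the 32, Gapdh and Pkm, stand at the middle and end of the pathway. Gapdh, which oxidises glyceraldehyde phosphate and yields NADH, measured 137.7, 142.8 and 141.2 FPKM in WT and 136.1, 145.4 and 145.8 in cKO. Its WT mean of 141 ± 2.60 (SD, n = 3) stood at the 98.7th percentile of all genes, and its log2 difference was 0.02 (95% interval -0.11 to 0.15). Pkm, the pyruvate kinase that ends the pathway, measured 101.8, 105.8 and 100.6 in WT and 101.0, 103.9 and 103.3 in cKO, with an interval of -0.12 to 0.12. The 2 groups overlapped in both genes. After Pkm came Ldha, Pgk1, Ldhb, Pdhb and Eno1 in level, from 78.0 down to 57.4 FPKM in WT, and Hk2 and Adm were the lowest at 1.19 and 0.402.

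**Figure D2:**
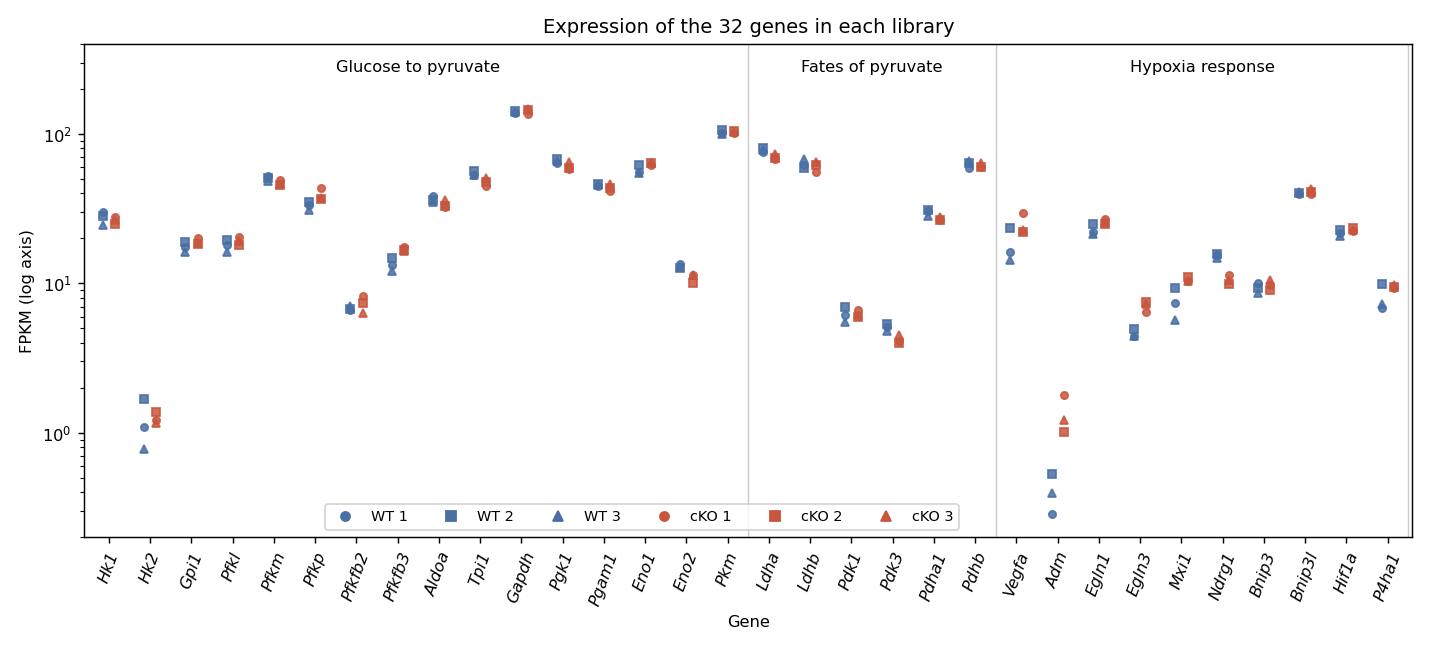
FPKM of the 32 genes in each of the 6 libraries on a log axis (circles, squares and triangles are replicates 1, 2 and 3; blue WT, red cKO). Levels run from Adm, under 1 FPKM in the WT libraries, to Gapdh at about 141, and the 2 groups overlap in 19 of the 32 genes.

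Pfkfb3 (mm10, chr2:11471433-11554077, protein coding) was the 1 called gene of these 16. It makes the activator of phosphofructokinase, the committed step of glycolysis. It measured 13.2, 14.9 and 12.03 FPKM in WT and 17.5, 16.7 and 16.4 in cKO, a mean of 13.4 ± 1.42 against 16.9 ± 0.540 (SD, n = 3), or 1.26-fold higher. The groups did not overlap, and the log2 difference was 0.32 (SE 0.0798, limma adjusted p = 0.0238). The call was lost without WT 1 (adjusted p = 0.0804), without cKO 1 (0.0881) and without cKO 2 (0.0735). Its relative Pfkfb2 was not called, at 6.66, 6.74 and 7.09 in WT and 8.18, 7.39 and 6.34 in cKO; 19.5% of its exon length is shared with other annotated genes, Yod1 on the opposite strand among them.

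None of the 3 subunits of phosphofructokinase itself was called. Pfkp, the platelet type, measured 33.5, 35.3 and 31.1 FPKM in WT and 43.7, 36.9 and 37.2 in cKO, with no overlap (log2 difference 0.23, adjusted p = 0.0806 in limma). Pfkm, the muscle type, was 50.4 in WT on average and 47.0 in cKO (-0.10, adjusted p = 0.288), with overlapping groups. Pfkl, the liver type, averaged 18.0 and 19.2, also with overlapping groups (95% interval of the log2 difference -0.08 to 0.27). As a share of the 3 subunits' summed FPKM, Pfkp was 32.3%, 33.5% and 32.4% in WT and 38.6%, 36.7% and 36.2% in cKO, above WT in every cKO library. The share of Pfkm was below WT in every cKO library, with a mean of 49.6% against 44.6%. These shares come from the same values and were not tested. Their size also depends on the annotated exon lengths, 13401 bases for Pfkp, 3340 for Pfkm and 6675 for Pfkl.

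Further down the pathway, Eno1, the ubiquitous enolase, had higher values and Eno2, the neuronal enolase, lower values in cKO, and neither was called. Eno1 measured 56.0, 61.6 and 54.6 FPKM in WT and 62.2, 64.3 and 64.2 in cKO (0.15, adjusted p = 0.146 in limma). Eno2 measured 13.6, 12.6 and 12.8 in WT and 11.3, 10.01 and 11.4 in cKO (-0.23, adjusted p = 0.0546). Other settings changed these calls: Eno2 was called lower with a length and GC correction (adjusted p = 0.0304), quantile normalisation (0.0448) and limma voom (0.0445), and Eno1 was called higher with quantile normalisation (0.0262). Neither gene's groups overlapped, and the ratio of Eno1 to Eno2 was 4.13, 4.89 and 4.26 in WT and 5.49, 6.42 and 5.62 in cKO. The ratio of Hk1 to Hk2, the first kinases of the pathway, was 27.4, 16.7 and 31.4 in WT and 22.9, 18.1 and 22.6 in cKO; Hk2 in WT 2 (1.68 FPKM) was above all cKO libraries, and the groups overlapped. Tpi1, which interconverts the triose phosphates, was lower in every cKO library (54.2 ± 2.32 against 47.7 ± 2.94 FPKM, SD, n = 3) but not called (adjusted p = 0.0919). The rest, Hk1, Hk2, Gpi1, Aldoa, Pgk1 and Pgam1, had overlapping groups and adjusted p from 0.213 to 0.767. Hk1, the main hexokinase of neurons, ran from 24.5 to 30.2 FPKM in WT and from 25.1 to 27.9 in cKO. Gpi1, which turns glucose phosphate into fructose phosphate, ran from 16.2 to 19.0 in WT and from 18.5 to 20.2 in cKO. Aldoa, the aldolase that makes the split, ran from 35.1 to 38.2 in WT and from 32.5 to 36.1 in cKO. Pgk1, the first step that yields ATP, ran from 64.3 to 68.2 in WT and from 58.4 to 64.4 in cKO, and Pgam1, the mutase that follows it, from 45.0 to 45.9 and from 41.4 to 46.5. Exon length shared with neighbouring genes was 11.5% for Gpi1, 10.7% for Pfkm and 15.3% for Pkm.

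**Figure D3:**
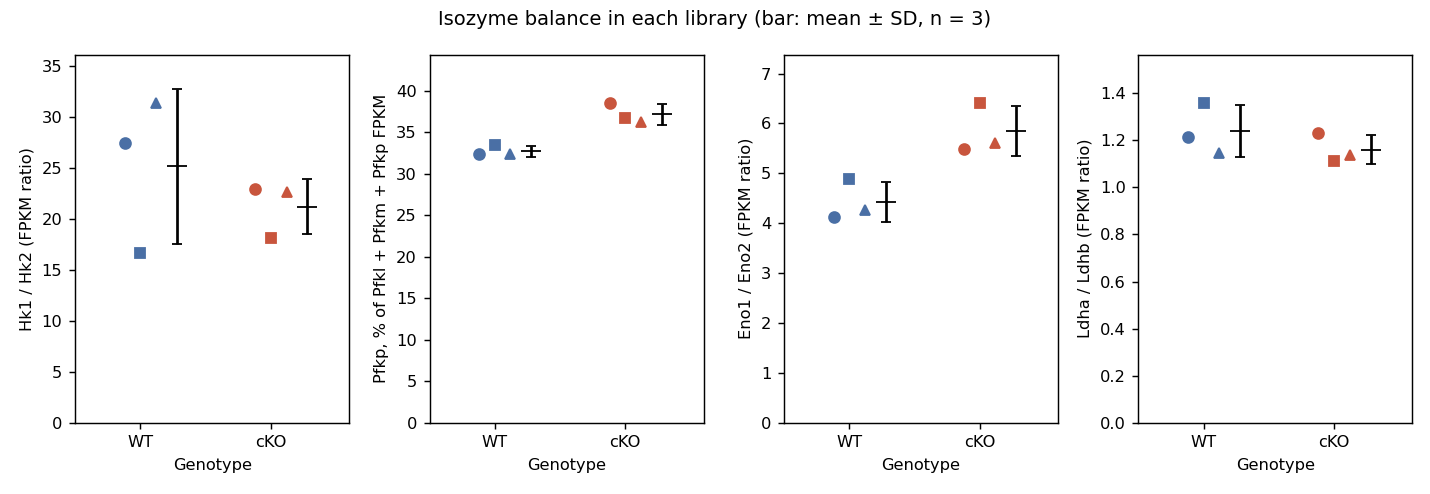
Ratios or shares of isozymes in each library, with mean and SD (n = 3) beside the points; circles, squares and triangles are replicates 1, 2 and 3. The share of Pfkp and the ratio of Eno1 to Eno2 are higher in all cKO libraries than in all WT libraries, while the Hk1 to Hk2 and Ldha to Ldhb ratios overlap.

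None of the 6 genes at the fate of pyruvate was called, and the group's median log2 difference was -0.10. Ldha, which makes lactate and is a classic HIF target, measured 75.4, 81.0 and 77.7 FPKM in WT and 68.3, 68.7 and 73.3 in cKO (-0.15, adjusted p = 0.113 in limma). All 3 cKO libraries lay below all WT libraries. Its partner Ldhb, which favours the reverse reaction, overlapped (63.2 ± 4.27 against 60.6 ± 4.63 FPKM, SD, n = 3), and the Ldha to Ldhb ratio was 1.24 ± 0.110 in WT and 1.16 ± 0.0628 in cKO. Pdk3, a kinase that shuts pyruvate dehydrogenase, measured 5.13, 5.35 and 4.78 in WT and 4.13, 3.98 and 4.50 in cKO (-0.23, adjusted p = 0.0790), and Pdha1, the dehydrogenase subunit it acts on, measured 30.5, 30.8 and 28.3 in WT and 26.5, 26.7 and 27.8 in cKO (-0.14, adjusted p = 0.151). Both were below WT in every cKO library, and 16.1% of the exon length of Pdha1 is shared with Map3k15 on the opposite strand. Pdk1, the kinase best known as a HIF target, overlapped at 5.52 to 6.95 FPKM in WT and 5.94 to 6.60 in cKO. Pdhb, the other subunit of the dehydrogenase, overlapped at 59.3 to 65.4 and 59.6 to 63.7.

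Among the 10 hypoxia response genes, 3 were higher and 1 was lower, beside 7.22% and 8.59% of all genes. In 9 of the 10 the mean log2 value was higher in cKO, beside 7907 of the 15703 genes in all, and the median log2 difference was 0.21. The groups did not overlap in 4 higher genes and 1 lower gene, beside 18.5% and 18.7% of all genes. Hif1a, the oxygen-regulated subunit of HIF, is controlled mainly at the level of protein. Its transcript measured 21.6, 22.9 and 20.8 FPKM in WT and 22.4, 23.6 and 22.9 in cKO, a log2 difference of 0.08 (95% interval -0.06 to 0.22). The groups overlapped in Hif1a, and no HIF protein was measured.

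Adm (chr7:110627661-110629820) encodes adrenomedullin, a vasodilating peptide. It measured 0.285, 0.526 and 0.395 FPKM in WT and 1.801, 1.02 and 1.23 in cKO, a mean of 0.402 ± 0.121 against 1.35 ± 0.406 (SD, n = 3). The groups did not overlap and the mean was 3.35-fold higher, though on the log2(FPKM + 1) scale, which shrinks low genes, the difference was 0.73 (SE 0.120, limma adjusted p = 0.00321). These levels rest on about 12 to 69 reads per library. The call held whichever library was left out, with an adjusted p of at most 0.0180.

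Egln3 and Egln1 are the prolyl hydroxylases that mark HIF for breakdown, Egln3 (chr12:54178981-54203860) being itself induced by HIF. Egln3 measured 4.43, 4.96 and 4.42 FPKM in WT and 6.41, 7.56 and 7.29 in cKO, 1.54-fold higher (4.60 ± 0.307 against 7.09 ± 0.599, SD, n = 3). The groups were separate, the log2 difference was 0.53 (SE 0.0832, limma adjusted p = 0.00265), and the call held without any 1 library (at most 0.0160). Egln1 measured 22.2, 25.0 and 21.4 in WT and 27.0, 25.1 and 25.9 in cKO (0.18, adjusted p = 0.116). WT 2, the highest WT library in Egln1, lay just below the lowest cKO library. Leaving WT 2 out, which widens the difference by construction, gave a limma adjusted p of 0.0375.

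Mxi1 (chr19:53310518-53375810) encodes a repressor that competes with MYC for its partner MAX. It measured 7.39, 9.26 and 5.65 FPKM in WT and 10.3, 11.1 and 10.3 in cKO, 1.42-fold higher (7.43 ± 1.81 against 10.6 ± 0.452, SD, n = 3; log2 difference 0.48, SE 0.132, limma adjusted p = 0.0356). The 3 WT libraries spread more widely than the 3 cKO libraries. Its call rested on all libraries but WT 2: leaving out any of the other 5 lost it (largest adjusted p = 0.105, without cKO 2), while without WT 2 the adjusted p was 0.00411. WT 2 was the highest WT library in Mxi1, so leaving it out widened the difference by construction.

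Ndrg1 (chr15:66929318-66969640), a gene of stress and differentiation that is induced by hypoxia in many cells, was the 1 gene of the 32 called lower. It measured 15.4, 15.6 and 14.7 FPKM in WT and 11.4, 9.96 and 10.5 in cKO, or 0.696 of the WT mean (15.2 ± 0.504 against 10.6 ± 0.700, SD, n = 3). All 3 cKO libraries were well below all WT libraries, with a log2 difference of -0.49 (SE 0.0694, limma adjusted p = 0.00156), and the call held without any 1 library (at most 0.0103). Of its exon length, 8.43% is shared with 2 annotated genes on the opposite strand, and the labels do not say whether strand was kept.

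Vegfa, the growth factor that draws in vessels, had the largest log2 difference of the 27 genes not called. It measured 16.2, 23.3 and 14.2 FPKM in WT and 29.6, 21.9 and 22.7 in cKO (17.9 ± 4.78 against 24.7 ± 4.23, SD, n = 3), with a log2 difference of 0.46 (95% interval 0.07 to 0.85, limma adjusted p = 0.106). WT 2 lay within the cKO range. P4ha1, a collagen prolyl hydroxylase, measured 6.89, 9.88 and 7.23 in WT and 9.37, 9.40 and 9.76 in cKO (0.24, adjusted p = 0.170), with WT 2 as the highest of all 6 libraries. Bnip3 and Bnip3l, mitophagy receptors, averaged 9.32 and 40.2 FPKM in WT and 9.77 and 41.1 in cKO, with overlapping groups (95% intervals -0.12 to 0.24 and -0.10 to 0.16); 22.3% of the exon length of Bnip3 is shared with a gene on the opposite strand.

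**Figure D4:**
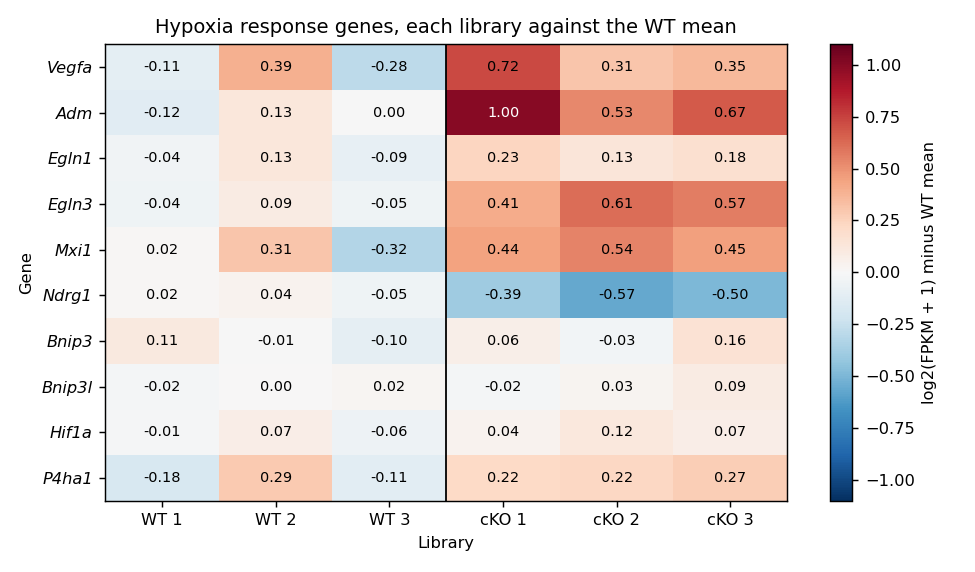
The 10 hypoxia response genes in each library, as log2(FPKM + 1) minus the mean of the 3 WT libraries. Red is above and blue below the WT mean. The called genes Adm, Egln3 and Mxi1 are above it in all 3 cKO libraries. So are Vegfa, P4ha1, Egln1 and Hif1a, which were not called. Ndrg1 is blue in all 3. WT 2 is the highest of the WT libraries in 8 of the 10 genes, with its largest shifts in Vegfa, Mxi1 and P4ha1.

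The position of WT 2 runs through many of these genes. It was the highest WT library in 23 of the 32 genes (71.9%), beside 33.9% of all genes, and in 8 of the 10 hypoxia genes. The median shift of the 10 hypoxia genes from the WT mean was 0.11 in WT 2, -0.03 in WT 1 and -0.07 in WT 3, beside 0.18 to 0.23 in the cKO libraries. Without WT 2, limma called Vegfa (0.66, adjusted p = 0.00814), P4ha1 (0.38, 0.00754) and Egln1 (0.24, 0.0375) higher as well. That made 7 of the 32 higher and 1 lower, while 19.7% of all genes were called in either direction (1572 higher and 1517 lower). Because WT 2 was the highest WT library in these 3 genes, leaving it out widens their differences by construction. Leaving out any other library gave 2 or 3 of the 32 higher and 1 lower. WT 2 was also the highest WT library in 10 of 14 dividing-cell markers, of which 6 were called higher and 0 lower (summed 96.1 to 106 FPKM in WT, 103 to 125 in cKO), and in 8 of 12 endothelial markers, of which none was called. In other lists WT 1 led: it was the highest WT library in 15 of 16 astrocyte and 11 of 14 radial glia markers. Markers of other cells also differed between the groups, to be read beside 7.22% of all genes called higher and 8.59% lower. Among them, 5 of 14 radial glia markers were lower and 1 higher (summed 693 to 739 FPKM in WT, 459 to 579 in cKO). Lower calls were made for 5 of 11 microglia markers (33.8 to 39.9 against 21.3 to 29.2) and 1 of 5 measured erythroid markers (86.3 to 90.7 against 68.0 to 85.7). Lower calls were also made for 6 of 14 interneuron markers (237 to 262 against 232 to 248), 4 of 15 neuron markers and 2 of 8 oligodendrocyte lineage markers (74.7 to 86.7 against 67.3 to 73.5), with 1 higher call in the last list. None of 9 measured mural cell markers was called (41.7 to 48.2 against 39.6 to 43.3). In bulk tissue fewer cells of a type and less RNA per cell cannot be told apart, and the part of these shifts in the values above was not tested.

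Other genes of the same pathways were read from lists by role, and the plot of these lists shows each gene's difference. Some genes are in more than 1 list, so the counts of the lists are not all of separate genes. Of 25 measured genes of other glycolytic and pyruvate steps, 2 were higher and 3 lower (20% called, beside 15.8% of all genes, median -0.08). Aldoc, the brain aldolase, had 31.8 FPKM in WT and 21.7 in cKO (limma adjusted p = 0.0170), and Pcx, which makes oxaloacetate from pyruvate, 9.94 and 8.09 (0.0241). Pdk4, a further pyruvate dehydrogenase kinase, was at 0.967 and 0.566 (0.0373), Pdp1, the phosphatase that undoes these kinases, at 15.9 and 19.6 (0.0264), and Gapdhs, the sperm-type dehydrogenase, at 2.16 and 3.28 (0.0439). Leaving out 1 library lost the call for Aldoc in 2 of 6 fits (largest adjusted p = 0.0676, without WT 1), for Pcx in 3 and for each of the other 3 genes in 4. Aldoc is also an astrocyte marker, and 9 of the 15 other measured astrocyte markers were lower in cKO, beside 8.59% of all genes. Their summed level without Aldoc was 265 to 317 FPKM in WT and 223 to 256 in cKO, and their part in the value of Aldoc was not tested.

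Among 13 transporters of glucose and lactate, none was higher and 2 were lower (15.4% called, beside 15.8% of all genes). Slc16a1, the monocarboxylate transporter MCT1 that carries lactate, measured 7.01, 6.89 and 6.78 FPKM in WT and 4.36, 4.03 and 4.80 in cKO (-0.55, limma adjusted p = 0.00146). Slc2a13, a myo-inositol carrier, was at 3.04 and 1.99 on average (-0.43, adjusted p = 0.00565). The groups of Slc16a1 did not overlap, and both calls held without any 1 library. The main glucose carriers of brain, Slc2a1 of vessels and Slc2a3 of neurons, named after their values were seen, were not called, with log2 differences of 0.03 (95% interval -0.22 to 0.27) and 0.30 (-0.02 to 0.61). Endothelial markers had no call among 12 measured, with a summed level of 51.5 to 59.7 FPKM in WT and 49.1 to 54.3 in cKO. In 10 of the 12 the mean log2 value was lower in cKO. All cKO libraries lay below all WT libraries in 5 of the 12 and above them in 0, beside 18.7% and 18.5% of all genes. The part of vessels in the transporter values was not tested.

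Of 16 measured regulators of HIF, 1 was called (6.25%, beside 15.8% of all genes). Cited2, which competes with HIF for its coactivators, measured 32.7, 30.9 and 32.7 FPKM in WT and 20.8, 25.5 and 25.8 in cKO (-0.41, limma adjusted p = 0.0104), with all cKO libraries below all WT libraries and the call kept without any 1 library. Of 41 measured further HIF targets, 5 were higher and 3 lower (19.5% called, beside 15.8% of all genes, median 0.06). Bhlhe40, a transcriptional repressor, had the largest log2 difference of the 41: it measured 3.19, 3.50 and 3.68 FPKM in WT and 6.31, 6.02 and 6.38 in cKO, 1.803-fold higher (0.70, adjusted p = 0.000361), with the call kept without any 1 library. Igfbp3, a binding protein of insulin-like growth factors, was at 12.8 and 16.7 (adjusted p = 0.0104), Zfp395, a zinc finger gene, at 1.71 and 2.87 (0.0140), and Kdm6b, a histone demethylase, at 20.5 and 27.7 (0.0331). Kdm3a, another histone demethylase, rose from 9.44 to 12.7 (adjusted p = 0.0366); it is named after its value was seen. With 1 library left out, the call of Igfbp3 held in all 6 fits, that of Zfp395 was lost only without cKO 1 (adjusted p = 0.0581), and those of Kdm6b and Kdm3a were lost in 4 and 5 of 6. The 3 lower genes were P4ha2 and P4hb of collagen hydroxylation and the chemokine receptor Cxcr4, each lost in 5 of 6 fits with a library left out. Of 17 genes of the pentose phosphate and glycogen pathways, 1 was called (5.88%). It was Gyg, the primer of glycogen, which was lower (12.1 against 9.89, limma adjusted p = 0.0420), a call also lost in 5 of 6 fits.

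**Figure D5:**
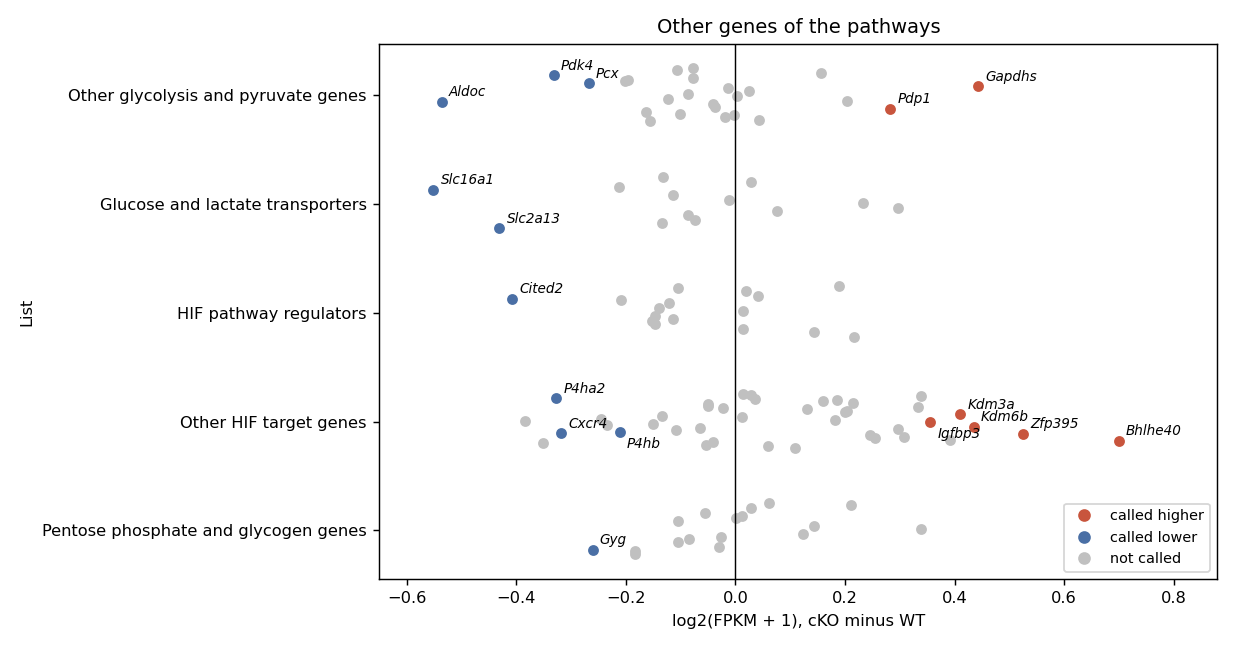
Difference between cKO and WT (log2(FPKM + 1)) for the measured genes of 5 lists of related genes, with the called genes coloured and named. Each list has 1 point per gene, and a gene in more than 1 list is drawn in each. Bhlhe40 and Slc16a1 lie farthest out on the higher and lower side; most points are not called.

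Reads from near-identical copies can be split between a gene and its copies. By blastn, 18 pseudogenes of the table matched 10 of the 32 genes at 80% identity or more over at least 50% of their length. Gapdh had 8 of these copies. The summed WT FPKM of a parent's copies was 1.49% to 18.1% of that of the parent. FPKM divides by exon length, so these are not shares of reads. At 18.1%, the copy of Bnip3 (564 bases) had 13 to 30 approximate reads per library, beside 457 to 597 for Bnip3 (2265 bases). Of the 18, 4 were lower and 1 was higher in cKO, beside 36.5% and 2.54% of all annotated pseudogenes. The higher one, Gm5345, a copy of Gapdh, rose from 1.51 to 3.52 FPKM (limma adjusted p = 0.000781), beside a log2 difference of 0.02 for Gapdh itself. None of the 5 called genes had such a copy.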

How the data were processed

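Neocortex RNA of postnatal day 0 mice was sequenced in 3 WT and 3 cKO libraries made with a TruSeq kit, per the labels' protocols. The authors deposited FPKM values, as the file headers name them. The submitters' processing notes list bcl2fastq 1.8.4, STAR 2.5.4b, featureCounts 1.6.1, R 3.4.1, DESeq2 1.22.1 and build mm10. The strand setting, annotation release and low-gene filter were not given in the sources used here. In all, 15703 genes were listed, beside 139 blank rows that were left out, and 15661 genes matched the GENCODE M21 annotation.

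Groups came from the sample titles. limma 3.58.1 in R 4.3.3 (mean-variance trend, robust) was fitted to log2(FPKM + 1) over all genes with genotype as the only term, two-sided, with Benjamini-Hochberg adjustment over the 15703 genes and calls at an adjusted p under 0.05. The design also named a count model, not used because the table holds FPKM. Approximate reads were recovered from FPKM and exon length, with 94.7% to 96.0% of low values within 0.1 of a whole read. FPKM divides by annotated exon length but does not remove composition, and a low gene such as Adm rests on few reads. The fit was tested on simulated data, with 50 changed genes of mean FPKM at least 1 at each size. It recovered 16% of the 1.25-fold changes, 78% of the 1.5-fold, 94% of the 2-fold and 98% of the 4-fold. A gene that was not called may thus still differ by a small fold. Alternatives covered the pseudocount, a low-value filter, scaling, moderation, length and GC, the replicate block, left-out libraries and voom. Promoter windows are RefSeq's, and pseudogene copies were found with blastn 2.17.0. All 32 genes are named; of each further list, called genes, at most 4 per direction by smallest p. The genes and lists were chosen with earlier results of these data known.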

Additional observations from a re-analysis of the deposited data

How the results depend on the processing

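Precision is limited by 3 libraries per group, and for Adm by about 12 to 69 reads. The calls of Adm, Egln3 and Ndrg1 held in every left-out fit. The number of the 32 genes called lower was 2 in place of 1 under quantile normalisation, the replicate block, the length and GC correction, that correction with the replicate block, and limma voom on approximate reads (an alternative chosen after seeing the data); the added gene was Eno2 each time. Quantile normalisation also called Eno1 higher (adjusted p = 0.0262) and voom Pfkp higher (adjusted p = 0.0312). Over all genes voom called 1687 higher and 1367 lower, in place of 1134 and 1349, which turns the balance of the calls. Leaving out 1 library in turn gave 2 to 7 of the 32 genes higher and 1 lower, 544 to 1572 of all genes higher and 830 to 1517 lower (fewest without WT 1, and nearly as few without cKO 1 and cKO 2), and a median of the 32 genes from 0.0027 to 0.046. The replicate numbers did not pair the libraries (same-number correlations -0.0427 to 0.109, others -0.224 to 0.223); with the replicate block 1274 genes were higher and 1541 lower, and of the 32 genes 4 were higher and 2 lower (Eno2, adjusted p = 0.0474). With the filter of a mean FPKM of at least 1, Adm was removed for its low level and not tested, which left 3 of the 32 genes higher. The planned edgeR fit was not run because the table holds FPKM.

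The sign of small differences turned in some settings, and the cause was not tested: Pgam1 to 0.0022 with the length and GC correction, alone or with the replicate block; Pkm to 0.11 with quantile normalisation and 0.0087 with voom; Ldhb to 0.017 with quantile normalisation and 0.010 with the length and GC correction, alone or with the block; Pdk1 to -0.035 with that correction, alone or with the block; and Pdhb to 0.056 with quantile normalisation. With 1 library left out, Hk1 ranged from -0.132 to 0.0137, Hk2 from -0.0732 to 0.223, Pkm from -0.0149 to 0.0209, Ldhb from -0.107 to 0.00026 and Pdk1 from -0.0601 to 0.0827.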
